A study of Sus scrofa with 14 samples.

Results

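PRNP, GDF15, LEF1 and C13H21orf62 are 4 genes whose mean response to digested yellow onion lay on the other side of 0 from their mean response to digested white onion in pig jejunum. They were chosen from the measured ratios of these same pigs, and they are 4 of the 3020 genes that the arrays name through a RefSeq accession. In all, 7 probes report them, with 1 probe each for PRNP and GDF15, 3 for LEF1 and 2 for C13H21orf62. Because the ratios of all 7 pigs entered the choice, those ratios are given as a description and without a test.

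PRNP encodes the cellular prion protein, a copper-binding glycoprotein anchored to the outer face of the cell membrane, best known from nervous tissue but also made by epithelial and lymphoid cells. GDF15 is a secreted member of the TGF-beta superfamily that cells release under stress, through the integrated stress response and through p53, and that acts on a receptor in the hindbrain to reduce food intake. LEF1 is a DNA-binding partner of beta-catenin that switches on Wnt target genes. In the adult gut it is known mostly from lymphocytes, while its relatives serve the crypt epithelium. C13H21orf62 is a protein-coding gene named only by its position, and little is known of its function.

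The samples were mucosal scrapings of jejunum from anaesthetised male piglets of 5 weeks, in which segments of gut that kept their blood supply, here called loops, were filled with 20 ml of a digest through an inflow tube and then perfused for 6 h towards an open outflow, the small intestinal segment perfusion (SISP) technique. In pigs 1, 2 and 4 a loop received the yellow onion digest (YOd) and another loop the saline digest (Sd), the control, in which no onion was digested. In pigs 5, 6, 7 and 8 the onion loop received the white onion digest (WOd). The onion digests had been diluted in peptone, and Sd in saline solution and more strongly, so onion and diluent changed together in every pig. No pig received both onions, so a difference between the onions cannot be told apart from a difference between the 2 sets of pigs. A scraping holds epithelium together with immune and other cells, and fewer cells of a type cannot be told apart from less RNA per cell.

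Each of the 14 loops was read on 1 single-colour Agilent array, on 5 slides, with 49.5% to 70.7% of probes well above background. Of a list of 20 enterocyte genes, such as FABP1, APOA1 and SLC5A1, 11 had a probe, and none of the 11 was at the floor on all arrays. The same held for crypt, smooth muscle and enteric neuron genes with a probe, so this count does not test the tissue label. The summed linear level of the 11 enterocyte genes, over the 75th percentile of the array, ranged from 813 to 1636. That of 4 smooth muscle genes ranged from 13.2 to 47.9. Levels are given as log2 of the processed signal over the 75th percentile of its array, with a floor at -4.43, below which probes have no order. A log2 ratio is the onion loop minus the Sd loop of the same pig. Across all genes tested the median log2 fold change stood at 0.14 for YOd/Sd and at 0.05 for WOd/Sd, and without scaling between arrays the YOd/Sd median was -0.16. The 75th percentile of the YOd array of pig 4 was lower than that of its Sd array by 0.62 on the log2 scale, the largest such step of the 7 pigs, so values of pig 4 depend most on the scaling. In pigs 2 and 7 the 2 loops were on different slides, and the arrays of pig 8 Sd and pig 7 WOd had larger scanner errors on the dim probes (39.2% and 45.8% of the signal for PRNP, against 10.2% to 15.9% elsewhere).

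PRNP was lower after YOd in pigs 1, 2 and 4 and did not move one way after WOd. The signal of its probe, A_72_P223697, was 102, 47.0 and 238 in the Sd loops of pigs 1, 2 and 4, and 35.1, 30.0 and 56.0 in their YOd loops. In pigs 5, 6, 7 and 8 it was 35.8, 29.5, 26.5 and 31.9 with Sd, and 37.8, 38.1, 17.6 and 58.4 with WOd. The signals were low, and 12 of the 14 arrays had the probe well above background.

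The YOd log2 ratios of PRNP were -1.35, -0.53 and -1.46, each larger than 2 scanner errors. With normexp background correction they were smaller, at -0.61, -0.002 and -0.78, so the fall in pig 2 depended on the background method. Without that correction 1.08%, 0.841% and 0.841% of the 2497 genes tested lay lower in pigs 1, 2 and 4. PRNP was chosen from these same ratios, so its low rank follows in part from the choice. The WOd log2 ratios were -0.01, 0.32 and 1.06 in pigs 5, 6 and 8, and both loops of pig 7 were at the floor. None of the WOd ratios was larger than 2 scanner errors, and that of pig 5 turned positive, to 0.08, without scaling. The mean YOd/Sd log2 fold change was -1.11 (SE 0.21, n = 3 pigs), a 2.17-fold lower level, and that of WOd/Sd was 0.34 (SE 0.21, n = 4 pigs). Without pig 8, whose Sd loop was the one with the 39.2% scanner error, the WOd/Sd value was 0.11.

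For PRNP the 2 sets of pigs differed more in their Sd loops than in their onion loops. The Sd levels are the denominators of the ratios that chose PRNP, so this split may follow in part from the choice. The mean log2 level with Sd was -2.54 ± 1.04 (SD, n = 3) in the pigs that also received YOd and -4.05 ± 0.44 (SD, n = 4) in those that also received WOd, 1.52 apart. After the onions the means were -3.65 ± 0.54 with YOd and -3.71 ± 0.52 with WOd, 0.06 apart. The Sd loops of pigs 1 and 4 stood above all other arrays of the series, while the YOd arrays, from -4.25 to -3.20, and the WOd arrays, from -4.43 to -3.23, covered nearly the same range.

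**Figure D1:**
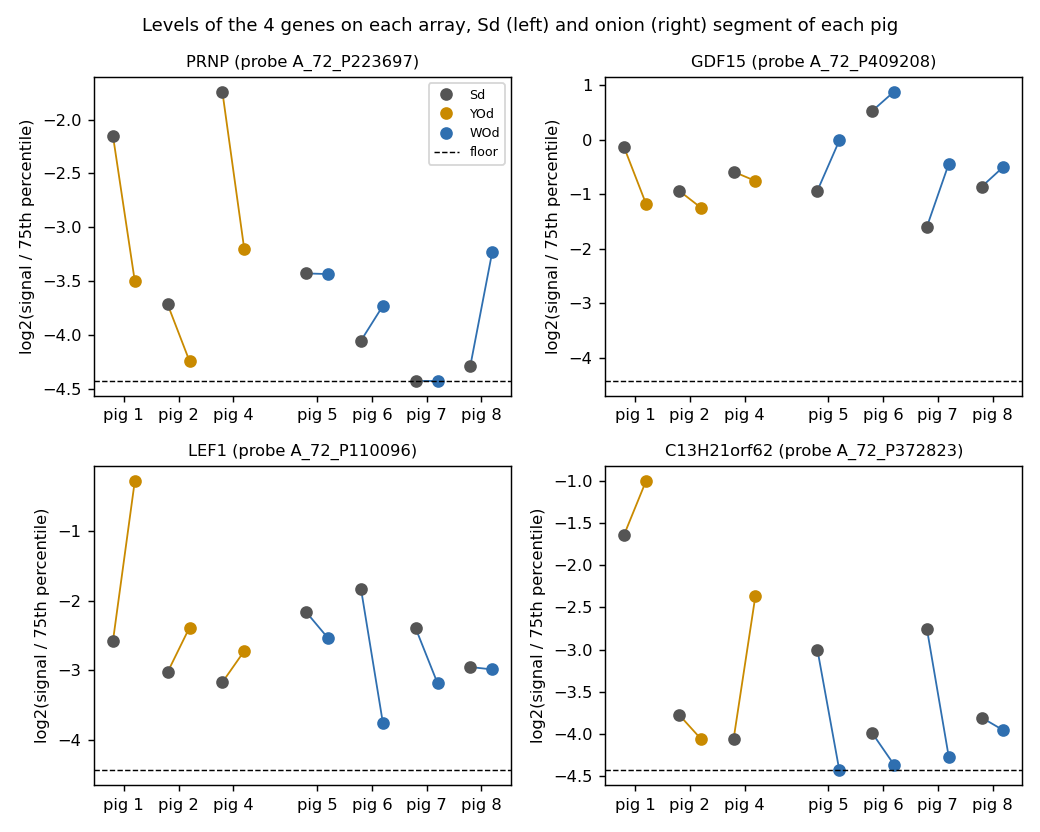
Levels of the probe that stands for each gene, as log2 of the signal over the 75th percentile of the array (y axis), in each pig (x axis), with the Sd loop on the left of each line, the YOd or WOd loop on the right and the floor dashed. PRNP was highest in the Sd loops of pigs 1 and 4, at -2.15 and -1.74, and GDF15 fell within each YOd pair and rose within each WOd pair.

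GDF15 was lower with YOd in all 3 pigs and higher with WOd in all 4, and kept these signs in each pig without scaling, with quantile normalization and with normexp background correction. LEF1 by its first probe also had a single sign in each onion group, and lost it in pig 4 without scaling. C13H21orf62 by its second probe had no pig of opposite sign in either group, with pig 6 at 0 because both of its loops were at the floor, and pig 2 changed sign without scaling. The signal of the GDF15 probe, A_72_P409208, was 408, 324 and 529 with Sd in pigs 1, 2 and 4, and 176, 240 and 305 with YOd. It was 202, 707, 194 and 342 with Sd in pigs 5, 6, 7 and 8, and 406, 936, 410 and 389 with WOd. All 14 arrays had the probe well above background and its scanner errors were the smallest of the 7 probes, at a median of 10.0% of the signal.

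The log2 ratios of GDF15 were -1.04, -0.31 and -0.17 with YOd, and 0.92, 0.36, 1.16 and 0.37 with WOd. Those of pigs 1, 5 and 7 were larger than 2 scanner errors, and the other 4 were not. The mean log2 fold change was -0.51 (SE 0.20, n = 3) in YOd/Sd and 0.70 (SE 0.19, n = 4) in WOd/Sd, a 1.62-fold higher level. Without pig 1 the YOd/Sd value was -0.24.

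The Sd loops of the 2 sets of pigs had similar GDF15, with mean log2 levels of -0.55 ± 0.40 (SD, n = 3) and -0.72 ± 0.89 (SD, n = 4). In the onion loops the YOd arrays reached from -1.24 to -0.76 and the WOd arrays from -0.49 to 0.88. GDF15 was chosen for ratios of opposite sign, so with Sd means this close, onion loops that lie apart follow largely from the choice. How many of all genes have onion loops that lie apart in this way was not counted. With Sd alone the levels of pigs 5 to 8 spanned 2.13 on the log2 scale, with pig 6 highest with Sd and with WOd.

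LEF1 was higher after YOd and lower after WOd by 2 of its 3 probes, and the probes differed in which pigs carried the change. The first probe, A_72_P110096, which had the highest mean level and stands for the gene, gave signals of 75.2, 76.0 and 88.3 with Sd and 325, 109 and 78.1 with YOd in pigs 1, 2 and 4. In pigs 5, 6, 7 and 8 it gave 85.9, 138, 111 and 80.5 with Sd and 70.4, 37.8, 61.3 and 69.2 with WOd. The YOd loop of pig 1 and the WOd loop of pig 6 stood at the 2 ends of the range.

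The log2 ratios of this probe were 2.29, 0.64 and 0.45 with YOd, where that of pig 4 turned to -0.18 without scaling. With WOd they were -0.37, -1.92, -0.79 and -0.03. The mean log2 fold change was 1.13 (SE 0.35, n = 3) in YOd/Sd and -0.78 (SE 0.30, n = 4) in WOd/Sd. Without pig 1 the YOd/Sd value was 0.54, and without pig 6 the WOd/Sd value was -0.40, so a single pig moved each by more than 1.5 times.

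The second LEF1 probe, A_72_P444744, gave log2 ratios of 0.17, 0.80 and 0.49 with YOd and 0.06, -1.93, -0.59 and -0.52 with WOd. The third, A_72_P630053, gave -0.30, -0.08 and 0.27 with YOd, and 0.36, -1.52 and 0.25 with WOd in pigs 5, 6 and 8. In pig 7 both loops were at the floor for the third probe, and its ratios in pigs 4, 6 and 8, with the Sd loop of pigs 4 and 8 and the WOd loop of pig 6 at the floor, are bounds. The 4.90-fold rise of pig 1 was thus seen by the first probe and not by the others, while the fall of pig 6 was seen by all 3 probes, each beyond 2 scanner errors. Without scaling the second probe turned to -0.01 in pig 1 and -0.14 in pig 4, and its 0.06 of pig 5 turned to -0.01 with quantile normalization. The third probe turned to 0.06 in pig 1 and 0.03 in pig 2 with normexp background correction.

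The mean YOd/Sd log2 fold change of LEF1 was 0.49 (SE 0.17) by the second probe and -0.04 (SE 0.17) by the third, and that of WOd/Sd was -0.74 (SE 0.31) and -0.23 (SE 0.32), each with 3 and 4 pigs. With 1 pig left out the third probe gave from -0.19 to 0.09 in YOd/Sd, positive without pig 1, and from -0.42 to 0.20 in WOd/Sd, positive without pig 6. The third probe was well above background on 11 of 14 arrays, and the first and second on 14 and 13. Where on the transcript the 3 probes lie is not given in the sources used here.

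**Figure D2:**
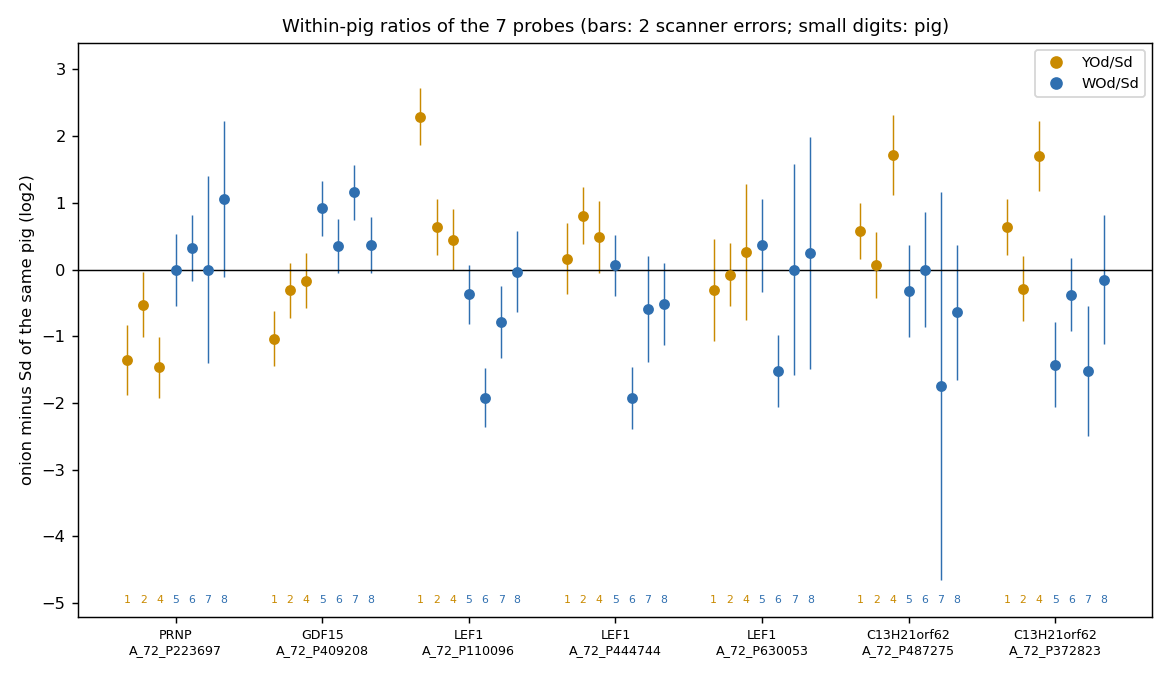
Log2 ratio of the onion loop over the Sd loop of the same pig (y axis) for the 7 probes (x axis), with 1 point per pig, its pig number at the foot and bars of 2 scanner errors on each side. All 3 LEF1 probes were lowest in pig 6, at -1.92, -1.93 and -1.52, while only the first was high in pig 1, at 2.29.

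The fall of LEF1 in pig 6 came with a fall of lymphocyte genes in the same pair of loops. Of 14 T and B lymphocyte genes tested, from a list of 27, 11 were lower with WOd in pig 6, with a mean log2 ratio of -1.46. In the other 6 pigs the mean of these genes lay between -0.19 and 0.33. Single genes also fell elsewhere. In pig 7, with a mean of -0.001, 7 of the 14 were higher and 3 lower, with the lowest at -2.33 and CCR7 at -1.54. The B cell genes led the change in pig 6, with log2 ratios of -5.35 for MS4A1, which encodes the surface protein CD20, and -4.18 for CD79A, a chain of the B cell receptor complex. The T cell genes moved less, with -1.18 for CD247, -0.83 for CD3D, -0.03 for CD3E and 0.20 for CD3G, all parts of the T cell receptor complex. The receptor CCR7, of this list, and the chemokine CCL19 direct lymphocytes within lymphoid tissue, and had log2 ratios of -2.97 and -2.40 in pig 6. CCL19 is not on the lymphocyte list. It was named because its ratios over the 7 pigs resembled those of LEF1, so its low value beside LEF1 follows from that choice. CD40LG and IL2RA, of the same list, were at the floor on all arrays. The summed linear level of the 14 genes, over the 75th percentile of the array, ranged from 39.2 to 166 in the Sd loops of pigs 5 to 8 and from 37.5 to 188 in the WOd loops, so the groups overlapped. The part of these genes in the LEF1 value was not tested. Without pig 6 the mean WOd/Sd log2 ratio was -0.35 by the second LEF1 probe and 0.20 by the third. In pig 1, where the first LEF1 probe rose, the mean of the lymphocyte genes was 0.21.

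**Figure D3:**
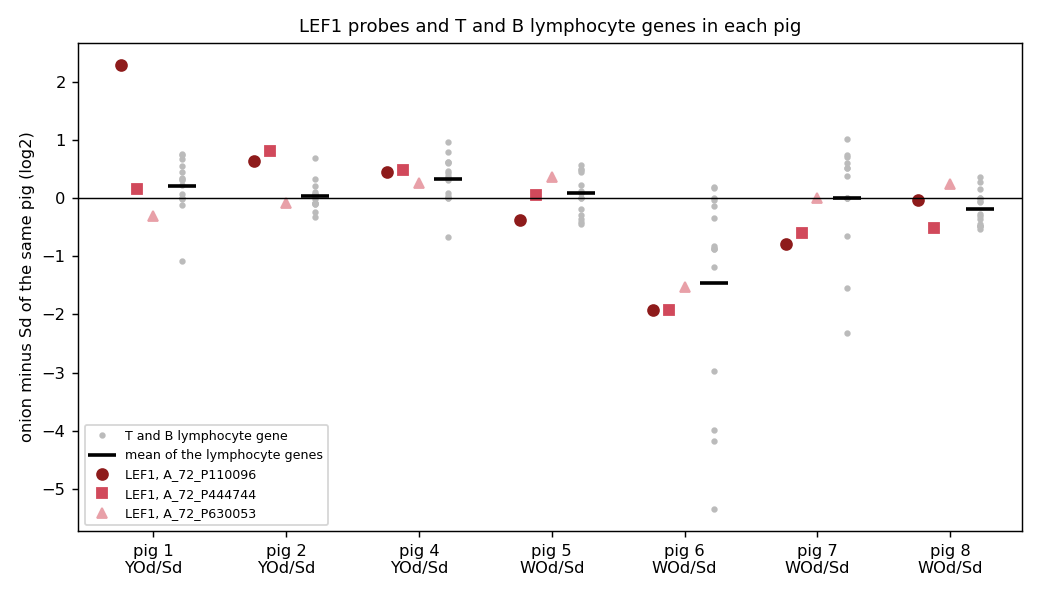
Log2 ratios (y axis) of the 3 LEF1 probes (coloured symbols) and of T and B lymphocyte genes (grey points, with their mean as a black bar) in each pig (x axis). In pig 6 the LEF1 probes and the lymphocyte mean of -1.46 were low together, whereas in pig 1 a single LEF1 probe was high at a lymphocyte mean of 0.21.

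C13H21orf62 was higher after YOd in pigs 1 and 4 and lower after WOd, most in pigs 5 and 7. The probe that stands for it, A_72_P372823, gave signals of 144, 45.4 and 47.6 with Sd and 198, 34.2 and 100.3 with YOd in pigs 1, 2 and 4. In pigs 5, 6, 7 and 8 it gave 48.0, 30.9, 87.0 and 44.6 with Sd and 18.8, 24.6, 28.9 and 35.3 with WOd. The probe was dim, and pig 1 was the only pig above 100 in both loops.

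The log2 ratios of this probe were 0.64, -0.29 and 1.699 with YOd and -1.43, -0.38, -1.52 and -0.15 with WOd, where the WOd loop of pig 5 was at the floor, so that its ratio is a bound. The second probe, A_72_P487275, gave 0.58, 0.07 and 1.72 with YOd, of which the 0.07 of pig 2 turned to -0.05 without scaling. With WOd it gave -0.32, -1.74 and -0.64 in pigs 5, 7 and 8, while both loops of pig 6 were at the floor. In pig 4 the Sd loop was at the floor for this second probe, which makes 1.72 a bound, as is the -1.74 of pig 7, where the WOd loop was at the floor and its scanner error was as large as the signal.

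The probes gave the same order of pigs within YOd, with pig 4 first and pig 2 last, and in pig 2 neither ratio was larger than 2 scanner errors. The mean log2 fold changes of C13H21orf62 were 0.68 (SE 0.35, n = 3) in YOd/Sd and -0.87 (SE 0.27, n = 4) in WOd/Sd by the first probe, and 0.79 (SE 0.31) and -0.68 (SE 0.29) by the second. Without pig 4 the YOd/Sd value of the first probe was 0.17 and without pig 2 it was 1.17. By the second probe it was 0.33 without pig 4, and the WOd/Sd value was -0.32 without pig 7. The Sd loops of the 2 sets of pigs had mean levels of -3.16 and -3.39, and the onion loops -2.47 with YOd and -4.26 with WOd. The YOd array of pig 2, at -4.06, lay within the range of the WOd arrays, from -4.43 to -3.96.

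Set against one another, the effect of YOd less that of WOd came to -1.46 (SE 0.34) for PRNP, -1.21 (SE 0.30) for GDF15, 1.90 (SE 0.55) for LEF1 and 1.55 (SE 0.51) for C13H21orf62 on the log2 scale. These differences were what the genes were chosen for. The difference of LEF1 fell to 1.23 (SE 0.43) and 0.19 (SE 0.44) by its other probes. For PRNP the Sd loops of the YOd pigs were higher by 1.52 and the onion loops by 0.06. For GDF15 the Sd loops differed by 0.16 and for C13H21orf62 by 0.23, while the onion loops differed by -1.04 and 1.78. LEF1 lay between, with Sd loops of the YOd pigs lower by 0.59 and onion loops higher by 1.31. Sd and onion levels both entered the ratios that chose the genes, so these splits are a description.

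**Figure D4:**
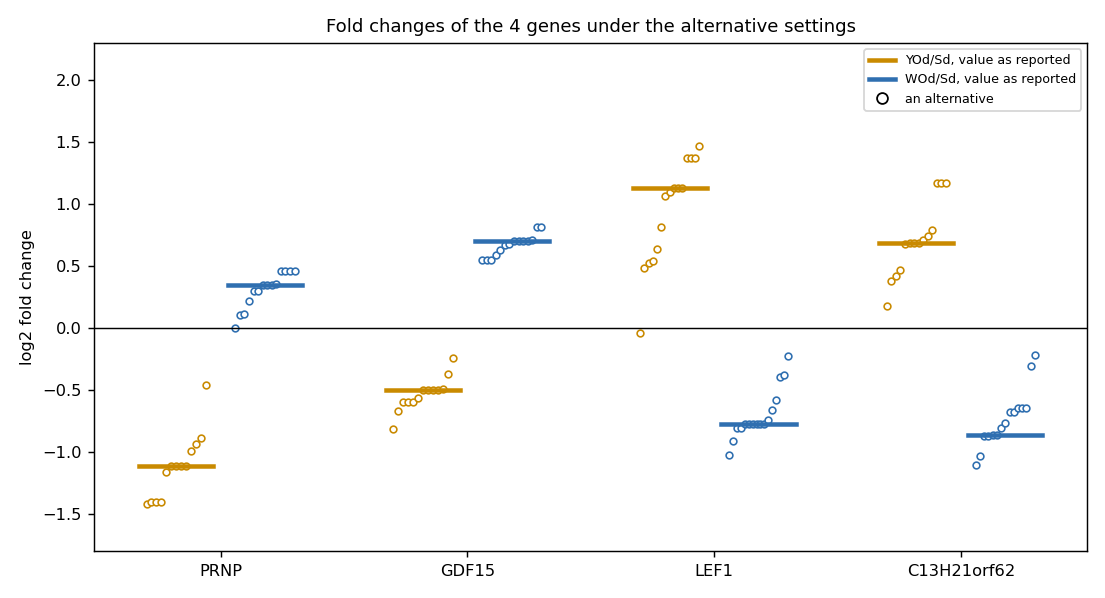
Log2 fold change (y axis) of the 4 genes (x axis) in YOd/Sd and WOd/Sd, as reported (bars) and under each alternative setting (open circles, among them a pig left out, another scaling and another probe). The values kept their side of 0 except for LEF1 in YOd/Sd by probe A_72_P630053, at -0.04, and PRNP in WOd/Sd by the authors' processed values, at 0.

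The genes around these 4 in their pathways were grouped in 9 lists. A gene was called at a raw p under 0.05 in limma with the pig as a block and a fold change over 1.5, which in YOd/Sd called 3.59% of 2449 genes as higher and 0.939% as lower. In WOd/Sd it called 0.782% of 2429 genes as higher and 0.412% as lower, and in the difference between the effects 2.24% of 2497 genes as higher and 1.28% as lower. No gene passed after Benjamini-Hochberg adjustment in limma in any of the 3, with 274, 67 and 103 genes at a raw p under 0.05. Over the 9 lists together 3 of 100 tested genes were called in YOd/Sd and 3 of 103 in WOd/Sd, against 4.53% and 1.19% of all genes, and 3 of 103 in the difference, against 3.52%. Without scaling 7 genes were higher and 95 lower in YOd/Sd, against 88 and 23, and 6 were higher and 92 lower in the difference, against 56 and 32. With normexp background correction 5 were higher and 7 lower in WOd/Sd, against 19 and 10, and 40 higher and 9 lower in the difference.

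Around PRNP, none of 12 tested relatives, ligands and shedding enzymes of the prion protein was called in either comparison. Their median log2 fold change reached 0.28 for YOd/Sd and 0.08 for WOd/Sd, against 0.14 and 0.05 over all genes. Of all genes 4.53% and 1.19% were called. ADAM10, the protease known to shed the prion protein from the cell surface, had -0.04 (SE 0.14) in YOd/Sd and 0.08 (SE 0.19) in WOd/Sd. CLU, which encodes the chaperone clusterin, had the widest spread of the 12, with a log2 ratio of -4.46 in pig 6, the pig with the low lymphocyte genes.

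Of the genes that handle copper and zinc, 0 of 12 were called in YOd/Sd and 2 of 13 in WOd/Sd, both lower. Over all genes 4.53% were called in YOd/Sd, and 0.412% were called lower in WOd/Sd. MT1A, a metallothionein that binds copper and zinc, fell in WOd/Sd by 0.90 on the log2 scale (SE 0.22, limma adjusted p = 0.999) and was lower in all 4 pigs. LOX, the copper-dependent lysyl oxidase that cross-links collagen, fell in WOd/Sd by 0.64 (SE 0.26, limma adjusted p = 0.999), with pig 6 at 0.18. The call of LOX was lost in 12 of 14 alternatives, among them without pig 5, 7 or 8, at -0.63, -0.36 and -0.66, and that of MT1A in 1, without the pig as a block. In YOd/Sd the log2 ratios of LOX were 3.95, -0.16 and 0.53, so pig 1 alone set its mean of 1.44 (SE 0.72), which was not called. In the difference between the effects LOX was called, at 2.08 (limma adjusted p = 0.852), and the value without pig 1 was 0.83. The list's median log2 fold change stood at 0.13 for YOd/Sd and at -0.02 for WOd/Sd.

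Around GDF15, none of 12 tested genes of the integrated stress response was called in either comparison, nor any of 9 of the p53 response. Of all genes 4.53% were called in YOd/Sd and 1.19% in WOd/Sd. ATF4, the transcription factor at the centre of that stress response, had log2 fold changes of 0.25 (SE 0.14) in YOd/Sd and 0.14 (SE 0.17) in WOd/Sd. DDIT3, which encodes the stress factor CHOP, had -0.19 (SE 0.15) and 0.06 (SE 0.20). The medians were 0.05 and -0.01 for the stress response and 0.09 and 0.09 for p53, against 0.14 and 0.05 over all genes.

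In the TGF-beta superfamily and its receptors 1 of 30 genes was called in YOd/Sd and 0 of 29 in WOd/Sd. The shares over all genes were 4.53% and 1.19%. FST, which encodes the activin antagonist follistatin, was higher in YOd/Sd by 0.74 (SE 0.15, limma adjusted p = 0.386), in all 3 pigs, and its WOd/Sd value was 0.34 (SE 0.21). TGFB3, a ligand of the family, was called in the difference between the effects, at 0.59 (SE 0.23, limma adjusted p = 0.852), with values of 0.33 in YOd/Sd and -0.25 in WOd/Sd. That call was lost in 12 of 17 alternatives, among them without pig 1, 2, 4, 6 or 7, at 0.43 to 0.63, and the call of FST without scaling, at 0.43, and over the mean of its probes, at 0.37. The medians of the list were 0.13 and -0.04.

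Around LEF1, none of its tested partners and co-factors was called, 7 in YOd/Sd and 8 in WOd/Sd. CTNNB1, which encodes beta-catenin itself, had log2 fold changes of 0.24 (SE 0.14) and 0.09 (SE 0.15). Of the Wnt ligands, receptors and signalling genes 1 of 5 was called in YOd/Sd and 0 of 6 in WOd/Sd. The shares over all genes were 4.53% and 1.19%. FRZB, a secreted Wnt antagonist, was higher in YOd/Sd by 0.71 (SE 0.24, limma adjusted p = 0.386), with log2 ratios of 0.96, 0.03 and 1.15. Its call was lost in 8 of 13 alternatives, among them without pig 1, at 0.59, and without pig 4, at 0.49.

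Among Wnt target genes 1 of 15 was called in YOd/Sd and 1 of 16 in WOd/Sd, against 4.53% and 1.19% of all genes. MMP9, a matrix protease, was higher in YOd/Sd by 0.73 (SE 0.25, limma adjusted p = 0.386), and its WOd/Sd value of 0.52 (SE 0.15) fell short of the fold threshold. Its call was lost in 8 of 13 alternatives, among them without pig 1, at 0.69, and without pig 4, at 0.42. EDN1, which encodes the vasoconstrictor endothelin, fell in WOd/Sd by 0.69 (SE 0.26, limma adjusted p = 0.999), with pig 7 at 0.26, and was called in the difference, at 0.90 (SE 0.38, limma adjusted p = 0.852). The first call was lost in 8 of 14 alternatives, among them without pig 5, 6 or 8, at -0.47, -0.68 and -0.62, and the second in 11 of 17, among them without pig 2, 4, 5, 6 or 8, at 0.67 to 0.89. MYC, ASCL2 and SOX9, the targets best known from the crypt, had 0.09, 0.32 and -0.22 in YOd/Sd and 0.05, 0.03 and -0.10 in WOd/Sd, and none was called. The list's medians were 0.06 and 0.04, against 0.14 and 0.05 over all genes.

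**Figure D5:**
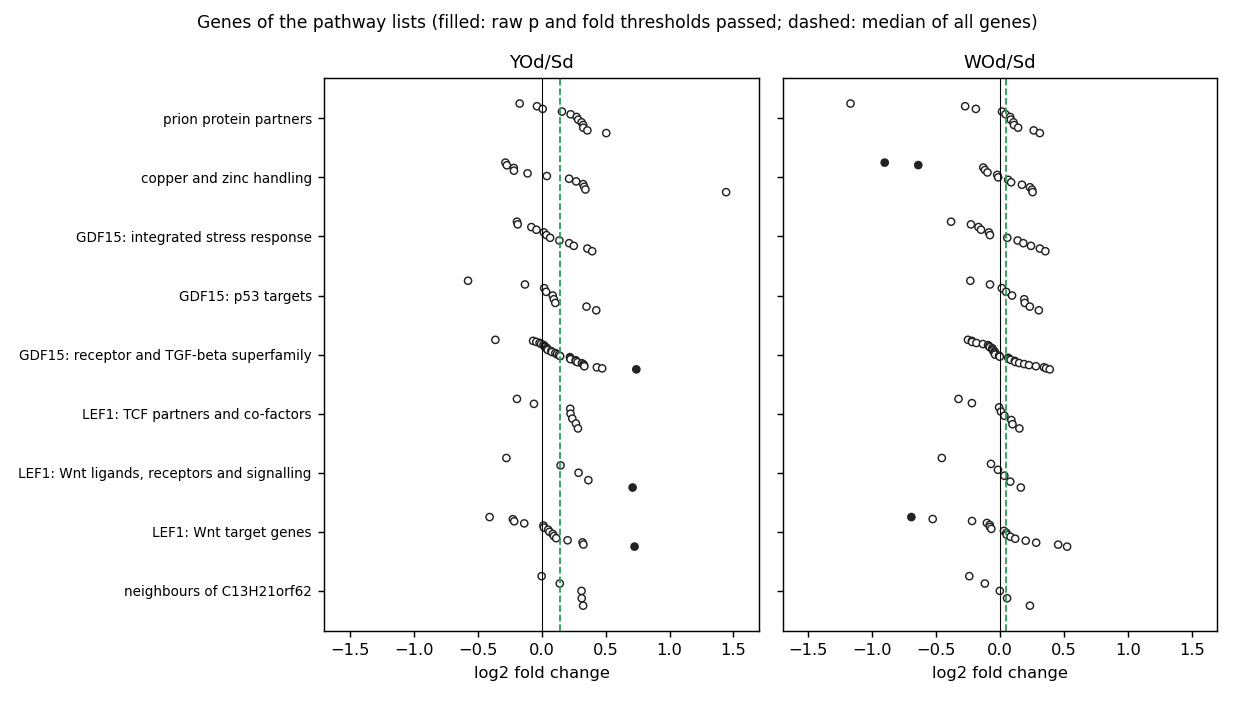
Log2 fold changes (x axis) in YOd/Sd and WOd/Sd of the tested genes of 9 pathway lists around the 4 genes (y axis, 1 point per gene), filled where the raw p and fold thresholds were passed, with the median of all genes dashed. The points lay around medians of 0.14 and 0.05, and 3 of them in YOd/Sd and 3 in WOd/Sd were called.

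Around C13H21orf62, 5 of the 20 nearest named genes on its chromosome were tested, and none was called. These were SOD1, the cytosolic superoxide dismutase, and the receptor genes IFNAR1, IFNAR2, IFNGR2 and IL10RB, which bind interferons and interleukin 10. Their log2 fold changes lay between -0.00 and 0.32 in YOd/Sd and between -0.24 and 0.23 in WOd/Sd.

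The genes whose 7 log2 ratios resembled each of the 4 most closely were found by Pearson's r over the 7 pigs, among 2496 other genes. These 7 points share the 2 onion groups on which the genes were chosen, so r is a description. For PRNP they were NAT6 (r = 0.945), the transcription factor KLF5 (r = 0.942), known from proliferating crypt cells, and PCYOX1L (r = 0.938). For GDF15 they were the neurotrophin NTF3 (r = 0.921, with 7 of 14 arrays at the floor), the small GTPase RND3 (r = 0.902) and the anti-proliferative gene TOB1 (r = 0.887).

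For LEF1 the closest were CD70 (r = 0.947, 5 arrays at the floor), a costimulatory ligand of lymphocytes, CCL19 (r = 0.939) and the sulfotransferase gene SULT1A3 (r = 0.928). CCL19 had log2 ratios of 1.48, -0.06 and 0.67 with YOd and 0.01, -2.40, -1.02 and -0.16 with WOd, with its highest and lowest values in pigs 1 and 6, as for LEF1. Among the closest to C13H21orf62 were the fatty acid oxidation gene ECHS1 (r = 0.986) and the copper importer SLC31A1 (r = 0.971). Their ratios were smaller, with SLC31A1 at 0.46, -0.12 and 0.66 with YOd and -0.27, 0.01, -0.37 and 0.15 with WOd.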

How the data were processed

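Gene expression was measured in jejunal scrapings of 7 pigs on 14 arrays. For each spot the authors deposited the processed signal intensity, its error, and median and background intensities, made with Feature Extraction 10.7.3.1, and for the probes log2 values whose normalization is not given in the sources used here beyond the tool name RMA in the submitters' processing notes. These log2 values were centred per probe, with column medians from -0.049 to 0, and were used as an alternative. Deposited flags served to leave out outlier spots, 5 to 462 an array.

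Replicate spots were averaged per probe, signals were scaled to the 75th percentile of their array, and the pooled 40th percentile served as floor. Of 43603 probes, 6686 were named through their RefSeq accession in a pig RefSeq gene table (Sscrofa11.1), from which the neighbours of C13H21orf62 were also taken. A gene was represented by its brightest probe on average. Tested genes exceeded the floor on 3 or more arrays in YOd/Sd and 4 or more in WOd/Sd. They were fitted in limma 3.58.1 (R 4.3.3; figures and tables in Python 3.11.15), with the pig as a block, and the script was tested on simulated data. Both loops of a pig came from the same animal, and after subtraction of group means they correlated at 0.433 to 0.748 over 2497 genes. The scanner error is the deposited error of both signals combined. No p is given for the 4 genes.

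Genes outside the 4 were named if called in a comparison and on a pathway or marker list, if a direct partner (CTNNB1, ATF4, DDIT3, ADAM10), or if among the 3 closest by r. Some genes that this rule names are not reported here. Genes named beside these were chosen after their values were seen. The members and the lists were chosen with earlier results of these data known. No sequences of the probes were used here, and the array precision is limited by the number of pigs.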

Additional observations from a re-analysis of the deposited data

Results flagged for a closer look

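GDF15 differed between the onions by -1.21 on the log2 scale, with each YOd pig below 0 and each WOd pig above it, and LEF1 by its first probe, A_72_P110096, by 1.90, with the opposite signs. Neither difference was tested, since these signs are what the genes were chosen for. For C13H21orf62 the second probe, A_72_P487275, had a level of -4.19 in the WOd loop of pig 5, far from the other 3 WOd loops relative to their range. Those 3 lay at -4.43, -4.43 and -4.41, at or close to the floor, which sets that range, and the scanner error in pig 5 was 16.8% of the signal.

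Outside the 4 genes, the effect of YOd exceeded that of WOd by 2.08 for LOX, 0.59 for TGFB3 and 0.90 for EDN1, each at an adjusted p of 0.852 in limma. The call of LOX was lost in 10 of 17 alternatives, among them without pig 1, 5, 7 or 8, at 0.83, 2.07, 1.81 and 2.10. For CD3D, a T cell gene, it was 0.69 (SE 0.26, limma adjusted p = 0.852), with WOd log2 ratios of -0.42, -0.83, -0.65 and -0.07, below 0 in all 4 pigs. That call was lost in 7 of 17 alternatives, among them without pig 4, 6 or 7, at 0.48, 0.58 and 0.64. It was the 1 call in the difference among 14 T and B lymphocyte genes tested, against 2.24% of all genes called higher. In WOd/Sd 5 of 12 tested lymphocyte genes lay above 0, among them CD3E at 0.02, CD3G at 0.13, CD4 at 0.20 and IL7R at 0.36. The other 7 lay below 0, down to -1.10 for CCR7. The median of the 12 was -0.18, against 0.05 over all genes.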

How the results depend on the processing

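The probes that stand for the 4 genes kept the signs of their mean values under the alternatives run, except that PRNP in WOd/Sd was 0 by the authors' processed values. By probe A_72_P630053 LEF1 in YOd/Sd was -0.039, and its WOd/Sd value of -0.23 became 0.20 without pig 6. With normexp background correction, chosen after seeing the data because the files hold median but no mean signals, PRNP was -0.46 in YOd/Sd, 0.11 in WOd/Sd and -0.58 in the difference between the effects, LEF1 0.63, -0.38 and 1.02, and C13H21orf62 0.42, -0.31 and 0.73. By the authors' processed values the difference was -0.89 for PRNP and 0.68 for C13H21orf62, whose WOd/Sd value was -0.22. Over the mean of its probes LEF1 was 0.52 in YOd/Sd and 1.11 in the difference. Without scaling GDF15 was -0.81 and C13H21orf62 0.37 in YOd/Sd, and with no floor PRNP was 0.22 in WOd/Sd. With the slide as a block C13H21orf62 was 1.17 in YOd/Sd. Counts of called genes also moved, given here for YOd/Sd, WOd/Sd and the difference between the effects, from 111, 29 and 88. They were 63 for YOd/Sd with quantile normalization, 62 for WOd/Sd with no floor, 63, 12 and 49 with normexp, 20, 17 and 47 with no filter on dim genes, and 7, 11 and 38 with the authors' processed values. With every probe tested they were 1303, 327 and 1570, with 649 higher and 654 lower in YOd/Sd and 472 higher and 1098 lower in the difference.

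Without the replicate block, that is without the pairing of the 2 loops of a pig, the counts were 20, 10 and 5. With complete pairs that fit leaves the means of the 4 genes as they are by construction, while the SE rose from 0.21 to 0.53 for PRNP and from 0.35 to 0.87 for C13H21orf62 in YOd/Sd, and from 0.19 to 0.47 for GDF15 in WOd/Sd. With the slide as a block the counts of called genes were 325, 87 and 191, and with only pigs whose loops shared a slide 327, 87 and 194. At a Benjamini-Hochberg adjusted p under 0.05 in limma, whatever the fold change, the first of these fits had 113, 2 and 0 genes. The second had 77, 2 and 0. With 1 pig left out the counts of called genes ranged from 56 to 327 in YOd/Sd, from 44 to 87 in WOd/Sd and from 44 to 153 in the difference. They were highest without pig 2 in the first and last and without pig 7 in WOd/Sd. The causes were not tested. Of the other values, for single genes and lists, 658 stayed within their bounds, 109 moved and 165 lost a call. PRNP, the third LEF1 probe and both C13H21orf62 probes reached the floor on some arrays, where only a bound can be given.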

Other observations

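Among markers of the cell types a scraping can hold, the enteroendocrine genes were those called most often, 4 of 8 in YOd/Sd and 1 of 8 in WOd/Sd, all higher, against 3.59% and 0.782% of all genes. In YOd/Sd the log2 fold changes were 0.92 (SE 0.27) for CCK, 0.95 (SE 0.28) for GHRL and 1.82 (SE 0.56) for MLN, which encode the gut hormones cholecystokinin, ghrelin and motilin, and 1.25 (SE 0.38) for PDX1, a transcription factor of the proximal gut (limma adjusted p = 0.386 each). In WOd/Sd PDX1 had 0.96 (SE 0.25, limma adjusted p = 0.999). The log2 ratios of these genes in pig 2 lay between -0.02 and 0.12, and the calls in YOd/Sd were lost in 5 or 6 of 13 alternatives each. Without pig 1 the YOd/Sd values were 0.60 for CCK, 0.61 for GHRL and 1.08 for MLN, and without pig 2 those of MLN and PDX1 were 2.73 and 1.89. CCR7 was lower in YOd/Sd by 0.62 on the log2 scale, and S100A9, a granulocyte gene, was higher by 0.67, at a limma adjusted p of 0.386 each. These calls were lost in 7 and 10 of 13 alternatives, and the values without pig 1 were -0.39 for CCR7 and 0.26 for S100A9. CCR7 was the 1 call among 13 T and B lymphocyte genes tested in YOd/Sd, against 0.939% of all genes called lower. Of these 13 genes 11 lay above 0 and 2 below, with a median of 0.33 against 0.14 over all genes. S100A9 was the 1 call among 13 genes of macrophages, dendritic cells and granulocytes, of which 12 lay above 0, against 3.59% of all genes called higher.

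Of the other cell types, none of 5 crypt and stem cell genes or 11 enterocyte genes was called in either onion comparison. The same held for 3 goblet and secretory genes, 5 smooth muscle genes (4 tested in WOd/Sd) and 7 endothelial and stromal genes. Of all genes 4.53% were called in YOd/Sd and 1.19% in WOd/Sd, so empty lists this short say little. The crypt genes had medians of -0.44 and -0.18, against 0.14 and 0.05 over all genes, with 1 of 5 above 0 in each comparison. The enterocyte medians were 0.31 and 0.03.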
